A study of Mus musculus with 39 samples.

Results

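The genes described here are 9 genes of the blood vessel wall, measured in mouse subcutaneous adipose tissue. They are Pecam1, Cdh5, Kdr, Flt1, Tek, Tie1, Angpt1, Angpt2 and Vwf. They were taken by name from the array's own annotation, which gives 9 of the 29411 gene names on the array and 13 probes, since Cdh5, Flt1, Angpt1 and Vwf have 2 probes each. The rule uses no measured value. The tissue came from C57BL/6J mice that had been weaned at 3-4 weeks and assigned to 5 diets. The low-fat control group (LFC, 10 arrays) received 10% of its calories as fat, and the high-fat group (HFC, 11 arrays) received 60% as fat together with added sucrose. In the 3 other groups the botanical formulation KAL-1 was added to the same high-fat diet, at 5 µg (HF5), 20 µg (HF20) or 75 µg (HF75), with 6 arrays each. Arrays of LFC and HFC exist side by side for 10 time points, of which Day 6, Day 10, Day 14 and Week 0 are called early and the 6 time points at intervals of 3 weeks from Week 3 to Week 18 late. A Day 1 array exists for HFC alone, and the KAL-1 groups start at Week 3. Weeks were counted from Day 14 on, so Day 14 and Week 0 stand for the same point of the diet, and here they were kept apart as 2 time points. There was 1 array for each diet under each time label, and the error of a diet difference is its spread over time points. Whether 1 mouse or a pool supplied the RNA of an array is not stated in the labels, so n counts arrays. How many arrays there are sets the precision throughout.

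Fat is supplied by a dense capillary bed, and adipocytes and endothelial cells exchange lipids and signals across it. Pecam1 (CD31) and Cdh5 (VE-cadherin) are adhesion proteins at the junctions between endothelial cells, and both serve as markers of the cell type. Kdr (VEGFR2) is the main signalling receptor for vascular endothelial growth factor A (VEGF-A), while Flt1 (VEGFR1) binds VEGF-A tightly and also exists as a soluble form that withholds it. Tek (Tie2) is the receptor for the angiopoietins, and Tie1 is its relative without a well-settled ligand. Angpt1, made largely by cells around the vessel, activates Tek and quiets the endothelium. Angpt2, made and stored by the endothelium itself, often opposes Angpt1 at the same receptor. Vwf, the von Willebrand factor, is a clotting protein that endothelial cells keep in the same storage granules as Angpt2. In bulk tissue, fewer cells of a type and less RNA per cell cannot be told apart, so a level below describes the tissue sample and not the endothelial cell.

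Each probe is a synthetic strand of 60 bases. Those of Vwf and Angpt1 are shown because the 2 probes of Vwf rose and fell together over the arrays while those of Angpt1 did not. Those of Pecam1 and Tie1 are shown as the single probe behind 2 of the endothelial genes. All 6 have at least 1 forward reading frame with no stop codon.
Vwf, probe used in the fits: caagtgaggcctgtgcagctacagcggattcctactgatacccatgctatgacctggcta
Vwf, other probe: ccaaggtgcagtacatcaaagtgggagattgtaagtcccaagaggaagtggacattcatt
Angpt1, probe used in the fits: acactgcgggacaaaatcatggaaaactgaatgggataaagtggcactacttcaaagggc
Angpt1, other probe: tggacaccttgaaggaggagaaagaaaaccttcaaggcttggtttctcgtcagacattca
Pecam1: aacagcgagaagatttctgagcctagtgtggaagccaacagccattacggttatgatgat
Tie1: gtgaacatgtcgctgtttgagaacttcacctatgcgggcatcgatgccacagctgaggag
The correlation between the 2 probes of a gene was 0.98 for Vwf and 0.96 for Flt1 over 39 arrays, 0.65 for Cdh5 over 39 arrays and 0.23 for Angpt1 over 37 arrays. The 2 probes of a gene shared no run longer than 6 bases. Where a gene had 2 probes, the one with the higher mean over all arrays stands for it below. The RefSeq gene table places Kdr and Flt1 on chromosome 5, Tek and Tie1 on 4, Cdh5 and Angpt2 on 8, Pecam1 on 11, Angpt1 on 15 and Vwf on 6.

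Levels are log2 intensities relative to the 75th percentile of the same array, so a level of 0 is that percentile. The 39 arrays carried 43803 spots other than controls, of which 49.3% to 87.8% were well above background, and the 75th percentile ran from 107.9 to 1285.3 intensity units. Every one of 8 adipocyte markers (Adipoq, Plin1 and others) was well above background on all 39 arrays. Markers of other cell types were also present in varying amounts. The mean of 6 skeletal muscle markers was lowest at HFC Week 9 (-5.35) and highest at HF75 Week 3 (7.62). A set of 6 arrays stood apart from the rest in the immediate early genes Fos, Fosb, Egr1, Jun, Junb and Ier2, which cells switch on within minutes of a stimulus. Their mean was -0.90 to -0.47 on the arrays of HF75 Week 3, HFC Day 1, HFC Day 6, HFC Day 10, LFC Day 6 and LFC Week 12, and 4.08 to 5.69 on the other 33. The results these 6 arrays touch most are also given without them. Leaving them out was decided after the data had been seen.

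Pecam1, Cdh5, Kdr, Flt1, Tek, Tie1, Angpt2 and Vwf were well above background on all 39 arrays. The level of Cdh5 had a median of 4.71 in LFC (2.56 to 6.14), 4.18 in HFC (2.26 to 5.40), 4.78 in HF5 (2.83 to 5.25), 4.81 in HF20 (3.23 to 5.52) and 4.84 in HF75 (2.29 to 5.41). The 5 diets overlapped over most of this range, and the 6 arrays low in immediate early genes held its 6 lowest levels, 2.26 to 2.62, against 2.83 to 6.14 on the other 33. This order was not shared by the other probe of Cdh5, which was lowest on LFC Week 3 (-1.77), an array outside the 6, and had 0.40 on HFC Day 10. Pecam1, the other junction protein, had a median of 1.93 in LFC (-0.64 to 2.93), 0.93 in HFC (-0.45 to 3.19), 1.66 in HF5 (0.84 to 3.26), 1.91 in HF20 (1.26 to 2.03) and 1.62 in HF75 (-1.69 to 2.86). Its lowest array was HF75 Week 3 and its highest HF5 Week 6, and all diets overlapped.

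For the VEGF receptors, the median level of Kdr was 4.68 in LFC (2.50 to 7.21), 3.85 in HFC (2.31 to 5.17), 4.80 in HF5 (2.37 to 5.16), 4.47 in HF20 (2.56 to 6.47) and 4.63 in HF75 (2.92 to 5.60). The LFC array of Week 18 alone exceeded 7, and the diets otherwise overlapped. Flt1 had a median of 5.85 in LFC (3.37 to 8.13), 5.18 in HFC (3.13 to 6.65), 6.19 in HF5 (4.00 to 6.38), 6.23 in HF20 (4.40 to 7.74) and 5.85 in HF75 (4.02 to 6.98). Its probe was saturated on 5 arrays, where the true level is at least the value given. On the LFC array of Week 18, the dimmest of the series, Cdh5, Kdr and Flt1 had their highest levels of all 39 arrays, while Tie1 ranked 22 and Tek 28 from the highest. The other probe of Cdh5 was at -0.11 there, and its highest level was 2.90 on HF20 Week 12. A table by the authors exchanges the HF5 and HF20 labels of Week 12, so the dose of these 2 arrays is uncertain. The array labels were kept here.

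For the angiopoietin receptors, Tek had a median of 0.43 in LFC (-1.11 to 1.79), 0.75 in HFC (-0.40 to 1.67), 0.72 in HF5 (-0.19 to 2.06), 0.80 in HF20 (0.46 to 2.07) and 0.92 in HF75 (-1.34 to 1.47). Tie1 had a median of 1.29 in LFC (-0.51 to 2.45), 0.48 in HFC (-0.67 to 2.22), 1.05 in HF5 (-0.36 to 2.18), 1.27 in HF20 (-0.29 to 2.82) and 1.36 in HF75 (-0.90 to 2.31). Both were lowest on the HF75 array of Week 3 and highest on the HF20 array of Week 12. Among their ligands, Angpt2 had a median of 1.71 in LFC (-0.24 to 2.86), 1.96 in HFC (-0.97 to 2.98), 2.47 in HF5 (0.26 to 3.10), 2.15 in HF20 (0.70 to 2.54) and 2.09 in HF75 (-1.16 to 2.89). Angpt1 was near the background of the array. Its probe used in the fits was well above background on 35 of 39 arrays, its spot was left out as an outlier on HFC Week 0 and HF20 Week 15, and its other probe was well above background on 34. Its median was -4.31 in LFC (-5.12 to -3.63), -3.87 in HFC (-5.02 to -3.25), -4.43 in HF5 (-4.94 to -3.95), -4.22 in HF20 (-4.57 to -4.09) and -4.25 in HF75 (-4.87 to -2.64), and its highest array, HF75 Week 3, was the one on which Pecam1, Tek, Tie1 and Angpt2 were lowest. The other probe of Angpt1 was not well above background there, at -4.21, and was highest on LFC Week 18, at -1.64. Vwf had a median of 4.77 in LFC (2.37 to 6.24), 4.22 in HFC (1.45 to 5.73), 5.33 in HF5 (2.62 to 6.23), 5.78 in HF20 (3.44 to 6.33) and 4.62 in HF75 (1.90 to 6.53), with its lowest array at HFC Day 1.

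**Figure D1:**
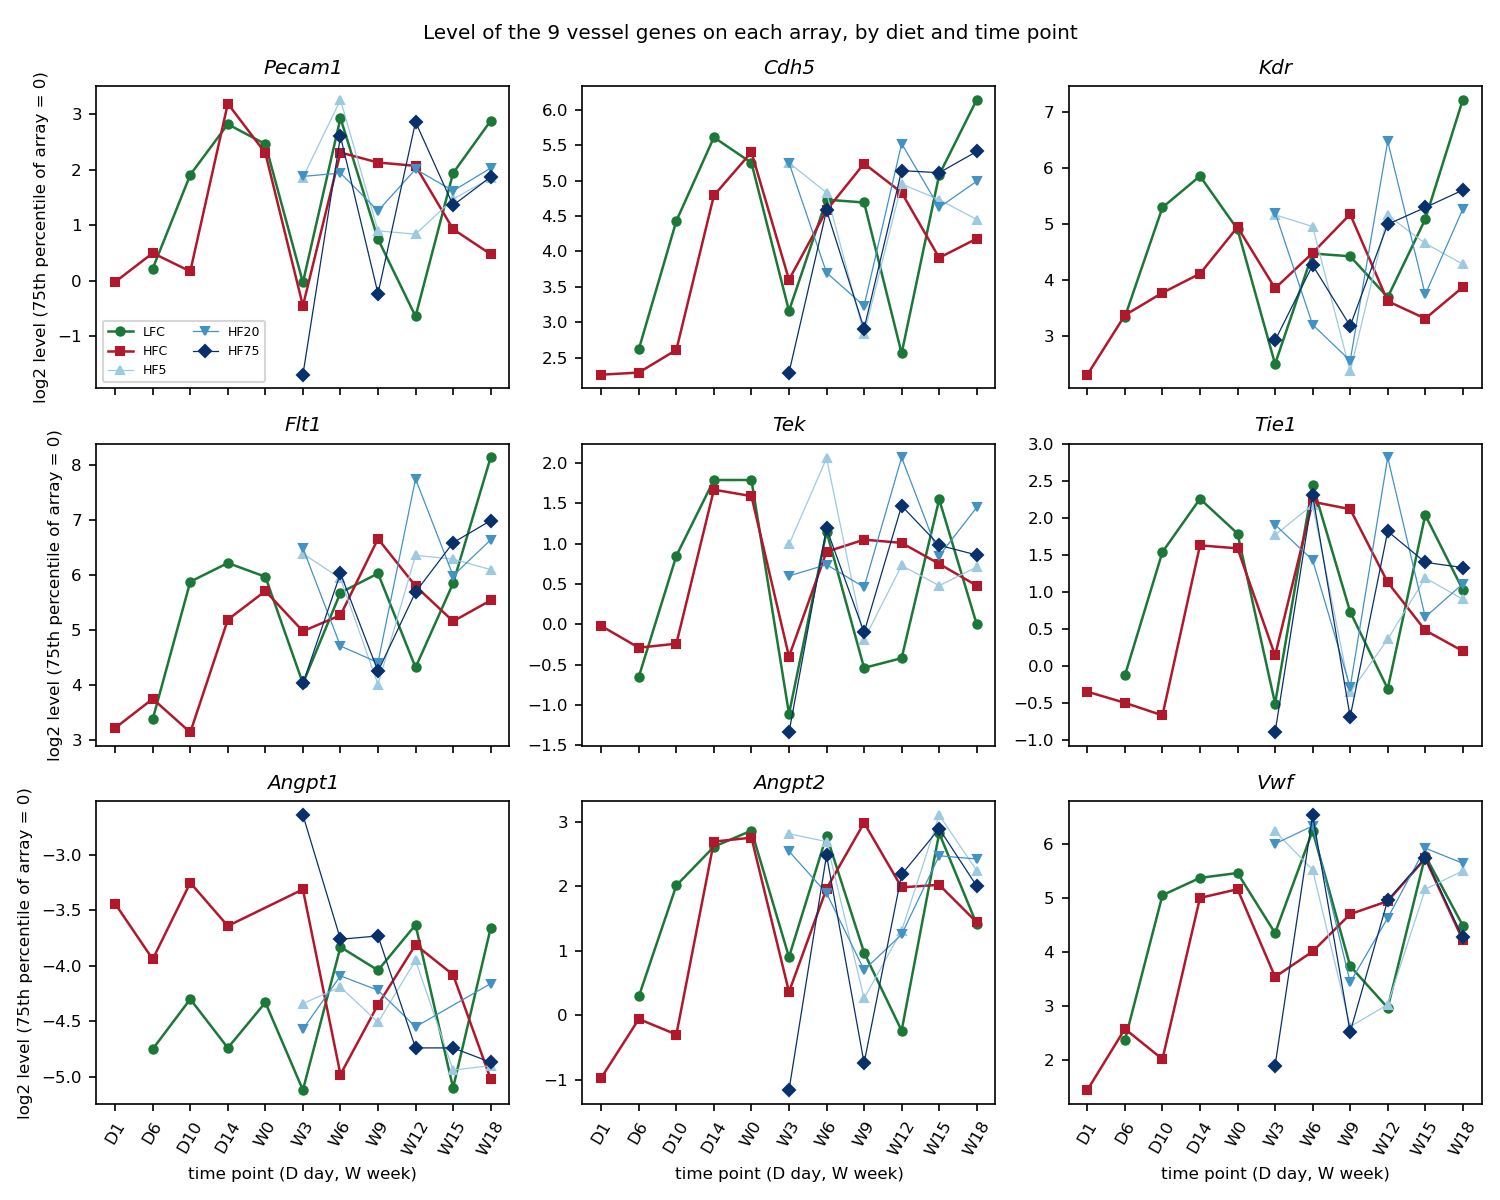
Level of each of the 9 genes on every array (log2, 75th percentile of the array set to 0) against the time point, in days (D) and weeks (W), with 1 point per array and lines joining the arrays of a diet; Angpt1 lacks 2 points. The arrays of Day 1 and Day 6, HFC Day 10, LFC, HFC and HF75 Week 3, LFC Week 12 and the KAL-1 arrays of Week 9 lie low for most genes other than Angpt1, with Cdh5 at 2.26 on HFC Day 1 and 6.14 on LFC Week 18.

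The vessel genes varied more between arrays than most genes did. Their standard deviation over the arrays had a median of 1.13 on the log2 scale, against 0.82 over the 21088 genes compared. With the mean of each time point taken out, the medians were 0.97 and 0.69. Vwf varied most, with a standard deviation of 1.40 that exceeded those of 86.1% of genes, and Angpt1 least, with 0.59 that exceeded 26.7%. These shares are descriptions and were not tested.

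The first comparison asked whether the high-fat diet changed these genes. With limma and the time point as a block, HFC was compared with LFC at the 10 shared time points, and 0 of the 9 genes had an adjusted p under 0.05 and 0 an unadjusted p under 0.05. Over all 19876 genes tested, 0 passed after adjustment (0%) and 1165 before it (5.86%). The median difference was -0.26 on the log2 scale for the 9 genes and -0.04 for all genes. Of the 9, 7 were lower in HFC and 2 higher, while 45.3% of all genes were higher. Kdr had the largest difference, at -0.63 (SE 0.41, limma adjusted p 0.815), with a mean of 4.05 ± 0.63 in HFC and 4.68 ± 1.33 in LFC (SD, n = 10 each). Its difference was nonetheless positive at 5 of 10 time points, and it was -3.34 at Week 18 against -1.77 to 1.35 at the others. The differences were -0.43 for Flt1 (SE 0.41), -0.39 for Vwf (SE 0.41), -0.28 for Cdh5 (SE 0.37), -0.26 for Tie1 (SE 0.35), -0.16 for Pecam1 (SE 0.42) and -0.06 for Angpt2 (SE 0.39). They were 0.21 for Tek (SE 0.27) and 0.31 for Angpt1 (SE 0.34), and the limma adjusted p ran from 0.815 to 0.981 over the 9. The other probe of Cdh5 gave 0.13 (SE 0.34), of opposite sign to the -0.28 of the probe used. Without the 6 arrays low in immediate early genes the difference was -0.67 for Kdr (SE 0.54), -0.48 for Flt1, -0.44 for Vwf, -0.42 for Cdh5, -0.41 for Pecam1, -0.20 for Tie1, -0.02 for Angpt2, 0.18 for Angpt1 and 0.20 for Tek, with a limma adjusted p from 0.642 to 0.982. Macrophage markers were higher in HFC for 6 of 6 genes (median 0.58), while skeletal muscle markers were lower for 6 of 6 (median -0.70) and lymphocyte markers for 5 of 5 tested (median -0.72). Red blood cell markers were lower for 4 of 4 tested (median -0.57), 2 of them with an unadjusted p under 0.05, platelet markers were lower for 5 of 6 (median -0.53) and adipocyte markers higher for 6 of 8 (median 0.41). Their part in the vessel gene values was not tested.

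The sign of the HFC minus LFC difference varied between time points, and at Day 10, Week 6, Week 9, Week 12 and Week 15 at least 7 of the 8 vessel genes other than Angpt1 shared it. Among these, 0 of 8 genes were higher in HFC at Day 10 (median difference -2.02) and 0 of 8 at Week 15 (-0.90), whereas 8 of 8 were higher at Week 9 (1.17) and 7 of 8 at Week 12 (1.73). At Day 10 the level of Vwf was 2.02 in HFC and 5.05 in LFC, and that of Flt1 3.13 and 5.87. At Week 12 Pecam1 was 2.07 in HFC and -0.64 in LFC, and Cdh5 4.83 and 2.56, while Kdr, the exception, was 3.62 and 3.69. The LFC and HFC arrays were scanned on different days at Week 12 and at Day 6 and on the same day at the other 8 time points, so diet and scan day cannot be told apart at Week 12 or Day 6. At Week 18, where 2 of 8 were higher in HFC (median -1.41), Kdr was 3.87 in HFC and 7.21 in LFC while Angpt2 was 1.44 and 1.41. The genes were split at Day 6, with 5 of 8 higher in HFC (-0.37 to 0.37), and at Week 3, with 5 of 8 (-0.82 to 1.35). Fewer were higher in HFC at Day 14 (2 of 8, median -0.51) and Week 0 (2 of 8, -0.18). At Week 6, 1 of 8 was higher (median -0.33). The arrays of HFC Day 10 and LFC Week 12 are among the 6 low in immediate early genes, and those of Week 9, Week 15 and Week 18 are not. Over all genes, 44.3% to 58.9% were higher in HFC at a time point. The 8 genes vary together, as described below, so their agreement at a time point is close to a single observation, and with 1 array per diet no difference at a time point was tested.

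**Figure D2:**
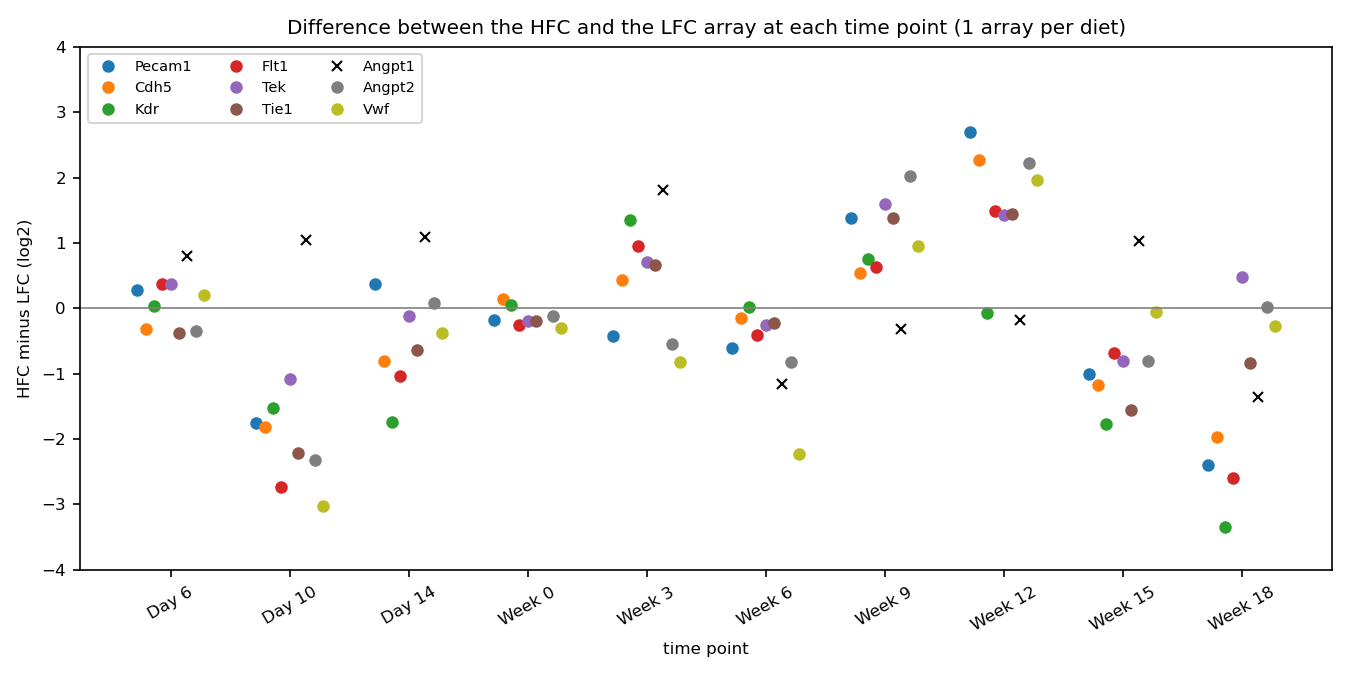
HFC minus LFC difference in level (log2) for each gene at the 10 time points with both diets, 1 point per gene. The genes other than Angpt1 (crosses) lie together on one side of 0 at Day 10 (-3.03 to -1.08), Week 9 (0.54 to 2.02) and Week 15 (-1.77 to -0.05), and the side changes between time points.

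Whether the diet difference itself changed from early to late time points was tested in the same 20 arrays. In limma 0 of the 9 genes passed for the late minus early diet difference, against 0 of 19876 genes (0%), and 0 of the 9 had an unadjusted p under 0.05, against 375 genes (1.89%). The late minus early diet difference was positive for 8 of 9 and for 49% of all genes. It was 1.02 for Angpt2 (SE 0.77), 1.00 for Tie1 (SE 0.68), 0.81 for Flt1 (SE 0.83), 0.80 for Vwf (SE 0.85), 0.79 for Tek (SE 0.53), 0.69 for Cdh5 (SE 0.76), 0.29 for Kdr (SE 0.87) and 0.26 for Pecam1 (SE 0.90). For Angpt1 it was -1.01 (SE 0.70), and the limma adjusted p was 1 for each gene. Of the 6 immediate early genes, 3 had an unadjusted p under 0.05 in this comparison, all of them positive, and their median was 2.63. The skeletal muscle markers were negative for 6 of 6 genes (median -2.77) and the lymphocyte markers for 5 of 5 tested (median -1.39), and their part in the vessel gene values was not tested. Without the 6 arrays low in immediate early genes the value was -0.71 for Pecam1, -0.13 for Cdh5, -0.15 for Vwf and -0.01 for Angpt2, against 0.51 for Tek, 0.30 for Tie1, 0.25 for Kdr and 0.22 for Flt1.

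Late arrays (12) were compared with early arrays (8) of both diets with the time point as a random block. In limma 0 of the 9 genes passed, and across 19876 genes 1 passed after adjustment (0.00503%), Nrk with -3.38 (SE 0.51, adjusted p 0.0407), and 1692 before it (8.51%). None of the 9 had an unadjusted p under 0.05. The late minus early difference was 0.72 for Flt1 (SE 0.57), 0.43 for Vwf (SE 0.60), 0.27 for Cdh5 (SE 0.56), 0.04 for Tie1 (SE 0.53), 0.01 for Angpt2 (SE 0.58), -0.13 for Angpt1 (SE 0.36), -0.14 for Kdr (SE 0.54), -0.42 for Pecam1 (SE 0.62) and -0.44 for Tek (SE 0.45). The limma adjusted p ran from 0.721 for Flt1 to 0.998 for Angpt2. The other probe of Cdh5 had -0.97 (SE 0.56, limma adjusted p 0.596), again of opposite sign to the probe used. That of Angpt1 had 0.01 (SE 0.59), against -0.13 for the probe used. The skeletal muscle markers were lower in late arrays for 6 of 6 genes, with a median of -2.55. Immediate early genes were higher for 6 of 6 (median 1.99), adipocyte markers for 1 of 8 (-0.60) and platelet markers for 1 of 6 (-0.58). Their part in the vessel gene values was not tested. Without the 6 arrays low in immediate early genes, Tek had -1.10 (SE 0.43) and an unadjusted p under 0.05 that adjustment removed (limma adjusted p 0.801), Pecam1 had -0.99 (SE 0.58) and Angpt2 -0.77 (SE 0.45). The 0.72 of Flt1 became 0.02 (SE 0.52, limma adjusted p 0.997) without these arrays.

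From Week 3 to Week 18, when all 5 diets had an array each week, the question was whether KAL-1 changed the genes in mice on the high-fat diet. The 3 doses together were compared with HFC in a fit of 30 arrays. The HF20 and HF75 arrays of Week 6 and the HF5 and HF20 arrays of Week 12 were scanned on another day than HFC. Dose and scan day cannot be told apart for these arrays. In limma 0 of the 9 genes passed after adjustment and 0 before it, against 0 of 21092 genes (0%) and 945 genes (4.48%). The difference was 0.35 for Kdr (SE 0.53), 0.29 for Pecam1 (SE 0.48), 0.25 for Vwf (SE 0.49), 0.24 for Flt1 (SE 0.48), 0.15 for Tek (SE 0.32), 0.04 for Cdh5 (SE 0.46), -0.05 for Angpt2 (SE 0.47) and -0.06 for Angpt1 (SE 0.30). By its other probe Angpt1 had 0.19 (SE 0.49), of opposite sign. For Tie1 both means were 1.05, and the limma adjusted p was 1 for all 9. Flt1 and Tek were higher with KAL-1 at 5 of 6 weeks, and the difference for every gene was smaller than its standard error. All 6 skeletal muscle markers were higher with KAL-1, by a median of 2.55. Epithelium markers were higher for 6 of 6 genes (median 0.37), and lymphocyte (0.81) and platelet markers (0.70) for 5 of 6 each. Macrophage markers were higher for 1 of 6 (-0.55) and adipocyte markers for 2 of 8 (-0.27). The part of these lists in the result was not tested.

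Among the 5 diets together, Tek had the smallest p of the 9 genes (limma F 1.59, adjusted p 0.993), and 0 of 21092 genes passed (0%), with 369 at an unadjusted p under 0.05 (1.75%). For each dose against HFC, 0 of the 9 genes passed and 0 had an unadjusted p under 0.05. At 5 µg, 0 genes of all passed (0%) and 287 had an unadjusted p under 0.05 (1.36%), and Pecam1 was nearest, with 0.45 (SE 0.58, limma adjusted p 1). At 20 µg the counts were 0 (0%) and 890 (4.22%), and Vwf was nearest, with 0.80 (SE 0.60, limma adjusted p 0.997), from 5.33 ± 1.09 in HF20 and 4.52 ± 0.77 in HFC (SD, 6 arrays each), higher at 4 of 6 weeks. Platelet markers, whose cells also carry Vwf, were higher in HF20 for 5 of 6 genes (median 0.91), and their part was not tested. Under normexp background correction 8085 genes passed for HF20, the median of all genes was 0.36, and Angpt1 had 1.41 (limma adjusted p 0.023), while under the main processing it had -0.15 (SE 0.39). By its other probe Angpt1 had 0.51 (SE 0.59) under the main processing. At 75 µg the counts were 0 (0%) and 1059 (5.02%), and Angpt2 was nearest, with -0.51 (SE 0.57, limma adjusted p 0.894). Of the 9 genes, 7 were higher than HFC in HF5 (all genes 50.2%) and 8 in HF20 (55.5%) but 3 in HF75 (50.2%). Most of these genes vary together, so the counts are no test of a dose pattern. Skeletal muscle markers were higher for 6 of 6 genes at each dose (medians 2.60, 2.03 and 3.25). Immediate early genes were higher in HF75 for 0 of 6 (median -0.90). The part of these lists was not tested. The 3 doses share the same HFC arrays. The HF75 array of Week 3 is one of the 6 low in immediate early genes and has the highest skeletal muscle mean of the series. Without the 6 arrays, 7 of 9 were higher in HF75 than in HFC, among them Kdr with 0.56 (SE 0.68) and Vwf with 0.32 (SE 0.54).

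The KAL-1 arrays of Week 9 lay low as a group. Cdh5 was at 2.83 in HF5, 3.23 in HF20 and 2.91 in HF75, against 4.69 in LFC and 5.24 in HFC. Flt1 was at 4.00, 4.40 and 4.24 on the same 3 arrays, against 6.02 and 6.65. Angpt1 apart, 6 of 8 genes (Cdh5, Kdr, Flt1, Tie1, Angpt2 and Vwf) were below both LFC and HFC on every KAL-1 array of that week, as were 15.7% of all genes. By its other probe Cdh5 is not among them, with 0.20 in HF20 against -0.15 in LFC. At each other week 0 of 8 were below both, against 6.16% of all genes at Week 12 to 16.5% at Week 18. Above both on every KAL-1 array were 2 of 8 genes at Week 12, 1 at Week 15 and 2 at Week 18. At Week 3, Week 6 and Week 9 there were 0, and the share of all genes above both is not given. The immediate early genes were not low on the KAL-1 arrays of Week 9, at 5.01 to 5.15, and all 5 arrays of Week 9 had been scanned on 1 day. Adipocyte markers were at 3.54 to 4.44 on the KAL-1 arrays, 4.03 in LFC and 4.73 in HFC, and macrophage markers at 0.59 to 1.41, 0.51 and -0.36. Fibroblast and progenitor markers were at 5.33 to 5.58 on the KAL-1 arrays, 4.93 in LFC and 4.09 in HFC. Lymphocyte markers were at -1.47 to -0.56 on the KAL-1 arrays, -0.91 in LFC and -4.85 in HFC, and skeletal muscle markers at -0.74 to 1.03, 1.35 and -5.35. This is a description of 5 arrays chosen for their values, with no test.

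Over the same 30 arrays a slope on the week was fitted, with the week as a random block. In limma 0 of the 9 genes passed, against 1 of 21092 genes after adjustment (0.00474%), Gm7776 with -0.24 per week (SE 0.04, adjusted p 0.049), and 1167 before it (5.53%). None of the 9 had an unadjusted p under 0.05. Flt1 came nearest, with a log2 change of 0.093 per week (SE 0.049, limma adjusted p 0.807). The slope was 0.079 for Kdr (SE 0.055), 0.067 for Cdh5 (SE 0.047), 0.052 for Angpt2 (SE 0.052), 0.045 for Tek (SE 0.036), 0.043 for Pecam1 (SE 0.053), 0.025 for Vwf (SE 0.057), 0.001 for Tie1 (SE 0.050) and -0.040 for Angpt1 (SE 0.030). By its other probe Angpt1 had 0.055 (SE 0.055), of opposite sign to the probe used. The median over the 9 was 0.045 and over all genes 0.006. The platelet markers had positive slopes for 6 of 6 genes (median 0.093), 4 of them with an unadjusted p under 0.05, and their part in the vessel gene slopes was not tested.

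**Figure D3:**
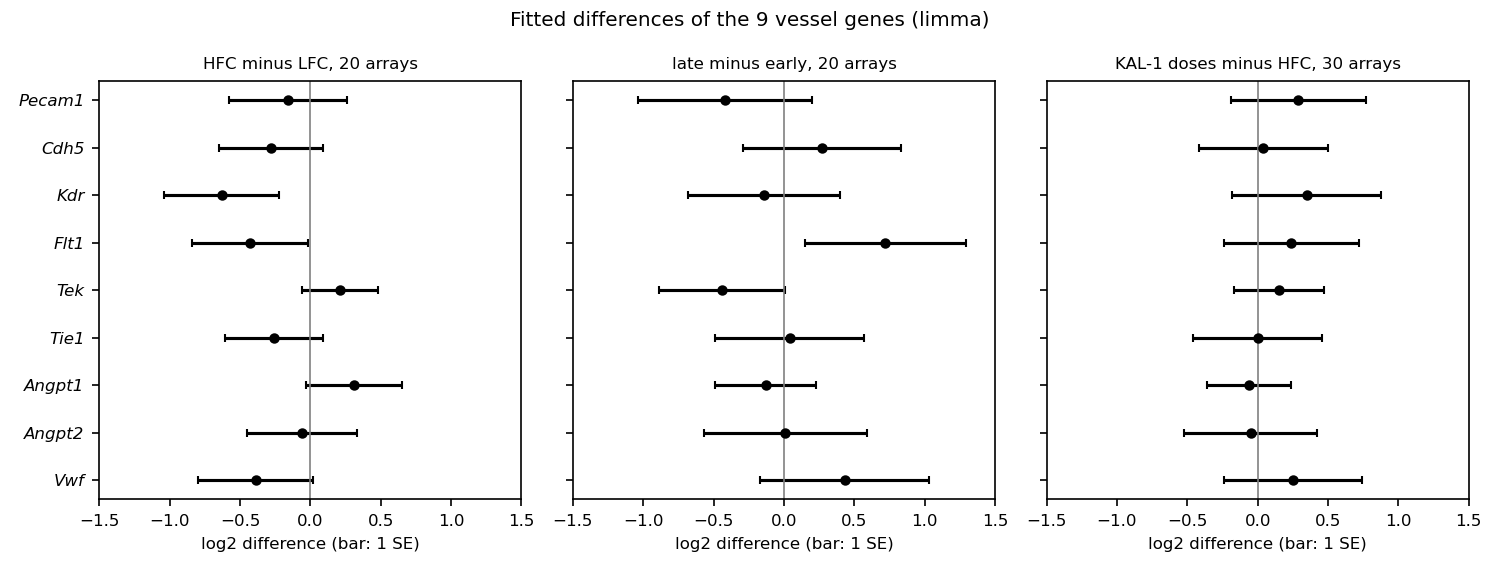
Fitted log2 difference of each gene for HFC minus LFC, late minus early, and the KAL-1 doses together minus HFC, each with a bar of 1 standard error on either side. No gene has an adjusted p under 0.05; Kdr at -0.63 for HFC minus LFC and Flt1 at 0.72 for late minus early lie farthest from 0, and Flt1 has 0.02 without the 6 arrays low in immediate early genes.

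Although no diet or time comparison passed for them, the vessel genes rose and fell together from array to array. Of the 36 pairs of genes, 34 had an adjusted permutation p under 0.05 over the arrays (39 arrays, or 37 with Angpt1), 28 positive and 6 negative. The 28 pairs without Angpt1 had a Pearson r between 0.48 for Kdr and Vwf and 0.93 for Cdh5 and Flt1, with a median of 0.76. For Cdh5 and Flt1, the Spearman correlation was 0.86, and r was 0.92 without the 2 arrays farthest from the median of Cdh5. These values of the pair are for the Cdh5 probe used in the fits. The permutation p of that pair was 1e-05, the smallest that 100000 permutations can give (adjusted 1.71e-05). With the time point means removed, 29 of 36 pairs passed, and the 28 pairs without Angpt1 had r from 0.38 to 0.93 with a median of 0.77. Without the 2 farthest arrays the median was 0.75. Over the 33 arrays that were not low in immediate early genes it was 0.65, from 0.27 to 0.91, and 26 of 36 pairs passed. The share of pairs passing among all genes is not given, so these counts do not show that the pattern is particular to vessel genes.

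Within the group, 3 sets were among the closest. Cdh5, Kdr and Flt1 had r of 0.86 to 0.93, Pecam1, Tek and Tie1 had 0.84 to 0.86, and the granule proteins Angpt2 and Vwf had 0.90 (Spearman correlation 0.82, adjusted permutation p 1.71e-05). These sets were picked out after the values had been seen. The first set rests on the Cdh5 probe used in the fits, which had r of 0.65 with the other Cdh5 probe. Over the 33 arrays, r was 0.82 for Angpt2 and Vwf, 0.91 for Cdh5 and Kdr, and 0.81 for Pecam1 and Tie1. Kdr and Vwf, a receptor and a stored protein, were the loosest of the 28 pairs without Angpt1, with 0.48, and 0.27 over the 33 arrays. Angpt1 ran the other way, with r from -0.53 with Angpt2 to -0.26 with Kdr. Its relation with Angpt2 (Spearman correlation -0.44, adjusted permutation p 0.00117) had r of -0.38 without the 2 farthest arrays and -0.26 over the arrays not low in immediate early genes. Over these arrays its median r with the other 8 genes was -0.09, so that most of the negative relation rests on the 6 low arrays. Angpt1 was also the gene whose 2 probes had r of 0.23.

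**Figure D4:**
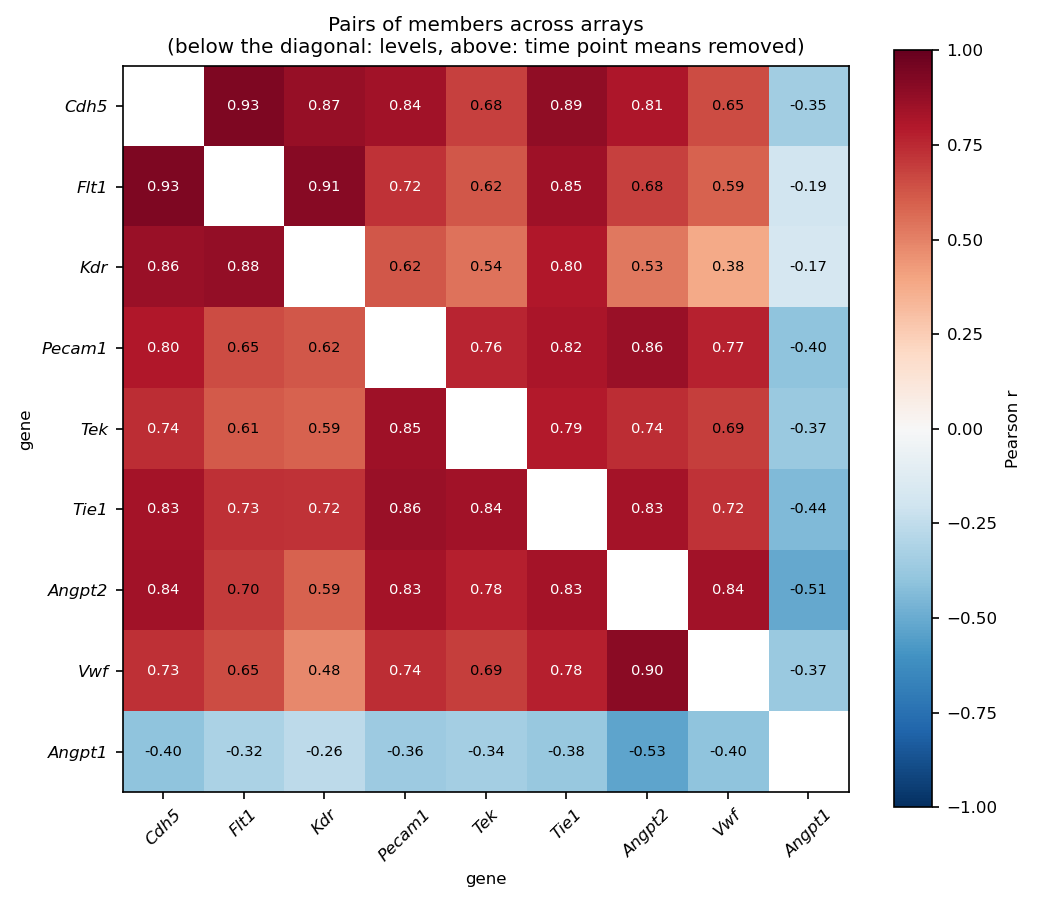
Pearson r of each pair of genes over the arrays, with levels as measured below the diagonal and with time point means removed above it; colour runs from -1 (blue) to 1 (red). All pairs without Angpt1 are positive, 0.48 to 0.93 below the diagonal, and all pairs with Angpt1 are negative, -0.53 to -0.26.

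The promoters of only 4 of the genes were in the RefSeq table used (build GRCm38.p6), Kdr, Flt1, Tek and Tie1, and these are shown. Pairs of these receptors had r from 0.59 for Kdr and Tek to 0.88 for Kdr and Flt1. Endothelial genes are widely bound by ETS factors, whose sites hold the core GGAA, read as TTCC on the other strand. Each sequence gives the 250 bases before the annotated start, 5′ to 3′ on the strand of the gene, with every GGAA or TTCC in capitals.
Kdr (chr5:75978456-75978705, minus strand): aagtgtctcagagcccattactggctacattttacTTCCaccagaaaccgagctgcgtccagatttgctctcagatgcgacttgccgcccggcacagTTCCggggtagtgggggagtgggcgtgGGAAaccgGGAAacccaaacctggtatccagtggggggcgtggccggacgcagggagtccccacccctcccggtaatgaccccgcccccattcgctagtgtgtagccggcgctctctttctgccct
Flt1 (chr5:147726012-147726261, minus strand): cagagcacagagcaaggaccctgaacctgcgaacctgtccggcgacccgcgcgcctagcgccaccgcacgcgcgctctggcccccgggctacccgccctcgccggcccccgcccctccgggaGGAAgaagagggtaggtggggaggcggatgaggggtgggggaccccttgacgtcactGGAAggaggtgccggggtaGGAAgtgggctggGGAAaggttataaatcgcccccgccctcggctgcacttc
Tek (chr4:94739039-94739288, plus strand): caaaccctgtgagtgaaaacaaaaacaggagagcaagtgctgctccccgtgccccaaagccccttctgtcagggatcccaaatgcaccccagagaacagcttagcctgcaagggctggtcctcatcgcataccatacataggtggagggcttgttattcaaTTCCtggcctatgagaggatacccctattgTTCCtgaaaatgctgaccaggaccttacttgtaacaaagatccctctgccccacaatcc
Tie1 (chr4:118489850-118490099, minus strand): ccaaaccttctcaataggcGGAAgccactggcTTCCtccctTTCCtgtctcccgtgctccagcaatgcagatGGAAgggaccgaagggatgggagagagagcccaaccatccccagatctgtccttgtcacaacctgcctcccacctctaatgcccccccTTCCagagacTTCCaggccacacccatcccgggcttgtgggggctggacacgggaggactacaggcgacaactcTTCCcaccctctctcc
Copies of the core numbered 4 in Kdr, 4 in Flt1, 2 in Tek and 7 in Tie1. Over the 32851 promoters of this length in the table the median was 3, and 93.4% held at least 1. As many copies as Tie1 has were in 3.82% of them, as many as Kdr and Flt1 in 33.4% and as many as Tek in 76.8%. A match of 4 letters is a description of the sequence and not a bound site.

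The mean of the standardized levels of Pecam1, Cdh5, Kdr, Flt1, Tek and Tie1 was taken on each array as a summary of the endothelial members, in standard deviation units. Its lowest value was -1.84 (HF75 Week 3) and its highest 1.46 (the array labelled HF20 Week 12, whose dose is uncertain). The 6 arrays low in immediate early genes had -1.84 to -1.23 and were 6 of the 7 lowest, the other being LFC Week 3 with -1.43. Of the 21123 genes compared, 391 or 1.85% had r of at least 0.8 with this mean over the arrays, and the median r was -0.05. The 10 genes other than the 9 with the highest r were Arhgef15 (0.97), Sncaip (0.96), 2610305D13Rik (0.95), Sox17 (0.95), and Pkp4, Esam1, Stap2, B4galt4, Emcn and Rasal2 (0.94 each). Sox17 is a transcription factor of arterial endothelium, and Emcn (endomucin) and the endothelial adhesion protein Esam, which the array lists as Esam1, are surface proteins of the same cells. Sox17, Emcn and Esam were on the lists of vessel genes, and Esam stayed unmatched there because of the older name on the array. Their levels moved over a similar range, Sox17 from -0.61 to 4.52 and Arhgef15 from -1.12 to 2.63.

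Lists of other vessel genes held 70 genes on the array, of which 69 were tested. An r of at least 0.6 with the summary was reached by 7.33% of all genes compared. The levels of all 22 other endothelial genes tested reached it, from 0.65 for the protein C receptor Procr to 0.95 for Sox17, as did 7 of 8 Notch genes, among them the ligand Dll4 (0.82) and the target Hey1 (0.92). The leukocyte adhesion genes Icam1, Vcam1, Sele and Selp had 0.70 to 0.79. Among genes of lipid transport across the capillary wall, 2 of 8 reached 0.6, Gpihbp1 (0.86), which holds lipoprotein lipase on the endothelial surface, and the fatty acid carrier Cd36 (0.72). Lpl, the lipase itself, made mostly by adipocytes, had -0.20. Of the mural genes of pericytes and smooth muscle, 4 of 11 passed 0.6, with 0.84 for Pdgfb, the endothelial ligand that recruits these cells, and 0.50 for its receptor Pdgfrb. Of the angiogenesis inhibitors 3 of 6 reached it, and of the lymphatic genes Lyve1 (-0.17) and Pdpn (-0.09) neither did. Values of r here and in the marker lists are descriptions over 39 arrays that share their preparation, with no test.

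None of the 69 genes passed after adjustment in limma in HFC against LFC, late against early, the diet comparisons or the change per week. For HFC against LFC, 4 had an unadjusted p under 0.05 upward and 1 downward, against 5.86% of all genes in either direction, and for late against early 2 and 2, against 8.51%. Lpl had the smallest p of those higher in HFC, with 5.77 ± 0.54 in HFC and 4.94 ± 0.78 in LFC (SD, n = 10), a difference of 0.83 (SE 0.28, limma adjusted p 0.803), higher at 8 of 10 time points. Vash1, which codes for the endothelial inhibitor vasohibin, had the smallest p of those lower, with -0.53 (SE 0.20, limma adjusted p 0.803), and exceeded LFC once in 10 time points. Vegfa, the ligand of Kdr and Flt1, had 1.81 ± 1.33 in HFC and 0.66 ± 1.28 in LFC, a difference of 1.16 (SE 0.53, limma adjusted p 0.803), positive at 9 of 10 time points. The other ligands had 0.64 for Figf (VEGF-D, SE 0.38), 0.18 for Pgf (SE 0.41), 0.17 for Vegfb (SE 0.42) and -0.11 for Vegfc (SE 0.47). Over the arrays, Vegfa and Vegfb had r of -0.44 and -0.49 with the endothelial summary, while Vegfc had 0.73 and the co-receptor Nrp2 0.91. For late against early, Figf had 0.94 (SE 0.43, limma adjusted p 0.573) and the fatty acid binding protein Fabp5 -1.10 (SE 0.36, limma adjusted p 0.412). For the change per week, the thrombin receptor Thbd had 0.084 (SE 0.034) and the pericyte proteoglycan Cspg4 -0.090 (SE 0.040), both with a limma adjusted p of 0.807.

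The endothelial summary was also read beside markers of other cell types on the same arrays. Its r was 0.91 with a list of 7 other endothelial markers (Emcn, Cldn5, Plvap, Robo4, Egfl7, Icam2 and Mmrn2), and 0.88 over the 33 arrays. These markers ran from 1.87 on HFC Day 1 to 6.16 on HF75 Week 6, and all 7 were well above background on every array. With the adipocyte markers r was -0.03. With skeletal muscle markers it was -0.60, and -0.25 over the 33 arrays, the 2 arrays with the most muscle signal, HF75 Week 3 (7.62) and HFC Day 1 (6.21), being those with the lowest summary. The array with the next highest muscle signal, HF5 Week 12 (5.90), had a summary of 0.18. With epithelium markers r was 0.54, and 0.33 over the 33 arrays. Over the 33 arrays r was -0.67 with lymphocyte markers, -0.63 with fibroblast and progenitor markers, -0.53 with macrophage markers and 0.11 with platelet markers, whose cells also carry Vwf. Over all 39 arrays these were -0.31, -0.30, -0.13 and 0.43. With immediate early genes r was 0.05 over the 33 arrays, and no pooled value is given because the arrays form separate clusters. With the share of spots well above background it was -0.04 and with the 75th percentile of intensity -0.01. The part of these cell types in the vessel gene levels was not tested.

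**Figure D5:**
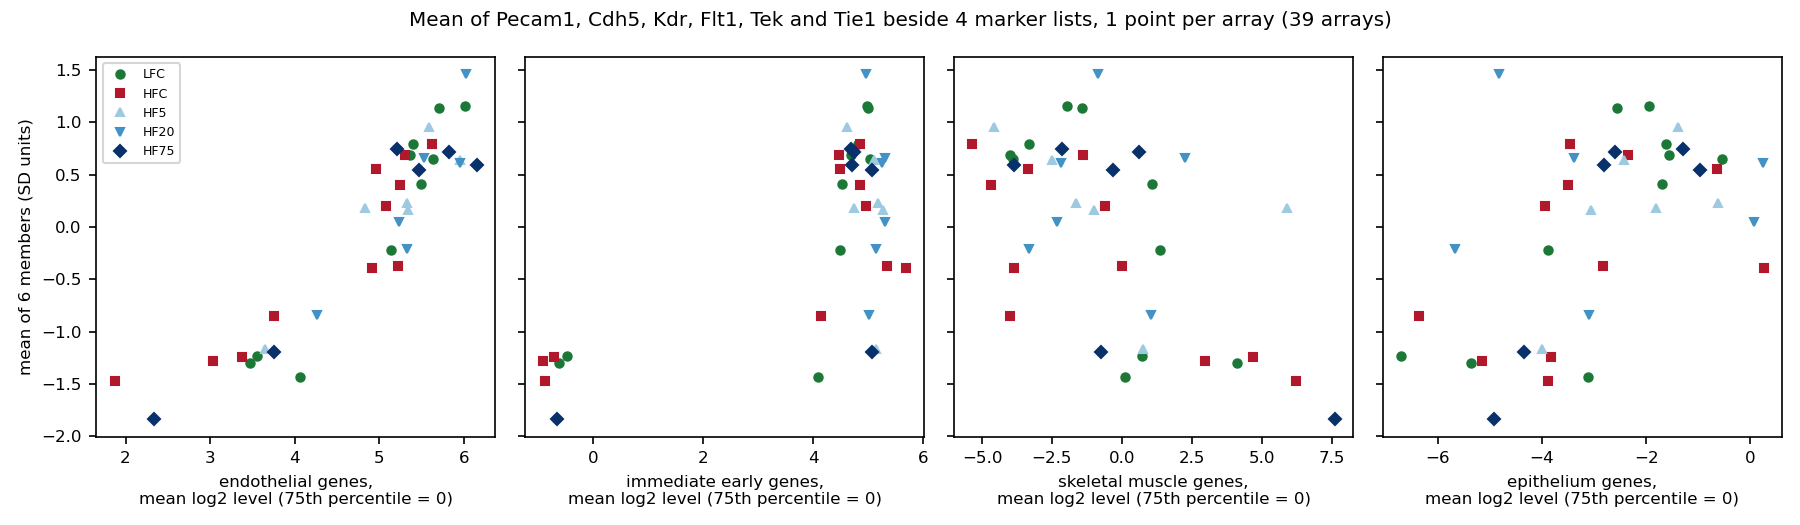
Mean standardized level of Pecam1, Cdh5, Kdr, Flt1, Tek and Tie1 (SD units) on each of the 39 arrays against the mean log2 level of endothelial, immediate early, skeletal muscle and epithelium genes, with symbols for the diets. The points rise with the endothelial markers (r 0.91), and the 6 arrays with immediate early genes at -0.90 to -0.47 lie at -1.84 to -1.23.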

How the data were processed

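Total RNA of mouse subcutaneous adipose tissue had been hybridised to Agilent 1-colour (Cy3) arrays. Per the file headers, each deposited array file holds spot intensity values from Feature Extraction 10.5.1.1 (the submitters' processing notes name 9.1) with the background already subtracted, an array annotation of build mm9 and no normalization between arrays. The deposited files also hold flags of 0 or 1 per spot, which mark saturation, outliers and signal well above background. A further table of log2 ratios to LFC, which the authors had made, was not used. Its Week 12 columns headed HF5 and HF20 match the arrays labelled HF20 and HF5, so exchanging these arrays was tried as an alternative.

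Levels are log2 of the processed intensity minus the 75th percentile of the array, without outlier spots. Each gene was represented by its probe with the highest mean, and all probes of the 9 genes were also read. A gene was tested when well above background on at least 10 arrays (HFC and LFC fit, 20 arrays) or 6 arrays (Week 3 to 18 fit, 30 arrays). Comparisons used limma 3.58.1 in R 4.3.3, two-sided, with the Benjamini-Hochberg method over all genes tested and a threshold of 0.05. The time point was a fixed block, or a random block (duplicateCorrelation) for late against early and the change per week. P-values measure the spread between arrays, which may be technical. The fits were run on simulated data with independent noise and no effect of the time point, so the handling of the block was not tested. Pairs of genes were tested with 100000 permutations, two-sided, adjusted over 36 pairs.

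All 9 genes were named in the main comparisons and the 1 with the smallest p in the others. Of the other vessel genes, those with the smallest p in each direction and the VEGF ligands were named. The members and lists were chosen with earlier results of these data known. Alternatives were normexp background correction (offset 50), quantile normalization, array weights, outlier spots kept, all probes, a prior with an intensity trend that is robust to outlying genes, no filter on dim genes, detection demanded on every array, no block, scan day or slide as block, time point means, the methods' t-test, and each time point left out. The exchange above, and leaving out the HF20 array of Week 15 (many outlier spots) or the 6 arrays low in immediate early genes, were chosen after seeing the data. Promoters and gene names came from RefSeq tables (GRCm38.p6). On the arrays of Week 9, 5 gene names that a spreadsheet had changed were taken from the other arrays.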

Additional observations from a re-analysis of the deposited data

Results flagged for a closer look

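Dixon's ratio was taken for 37 combinations of gene and diet with 4 to 10 arrays, and about 1 in 20 would pass its 95% limit by chance. The HF5 array of Week 9 stood below the other 5 HF5 arrays for 3 genes. The level of Cdh5 there was 2.83, with the nearest other array at 4.45, that of Kdr was 2.37 (nearest 4.28) and that of Flt1 was 4.00 (nearest 5.93). These genes were among the closest pairs over the arrays, so the 3 flags are not independent. By the other probe of Cdh5 the array does not stand apart, with -0.30, the nearest array at 0.47 and the highest at 2.74. The cause was not tested.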

How the results depend on the processing

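Of 1002 differences and slopes reported for the 9 genes and recomputed under the alternatives, 911 kept their sign and 91 changed it. Over all 1755 values of the 9 genes in every comparison and alternative, 1 had an adjusted p under 0.05, Angpt1 for HF20 under normexp. The number of genes called for HFC against LFC and for its late minus early difference was 0 in every alternative run; the slide as a random block could not be fitted for these. For late against early, called genes numbered 0 rather than 1 under normexp, all probes, no filter or one on every array, an intensity trend with a robust prior and time point means, 19 with array weights and 44 with no block, and 0 to 5 with a time point left out (3 without Day 14, 5 without Week 6, 0 without each of the others). For the change per week they numbered 0 under normexp, a filter on every array, all probes, the intensity trend, array weights, scan day as block, time point means, without the 6 arrays and with the Week 12 arrays exchanged, 20 with no block, and 0 to 3 with a week left out (3 without Week 3, 0 without each of the others). Array weights called 1 gene for the doses together, and normexp 8085 for HF20. The methods' t-test called 0 genes after adjustment for HFC against LFC, the doses together and each dose against HFC, was not run for late against early, and gave 422 at an unadjusted p under 0.05 for HFC against LFC, 486 for HF5 and 510 for HF75.

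Among the 1002, none of the values whose sign changed had an adjusted p under 0.05. Under normexp, late against early gave Tie1 -0.01, Angpt1 0.08 and Angpt2 -0.09, HFC against LFC gave Angpt1 -0.27 and Angpt2 0.04, the doses together gave Cdh5 -0.21, Flt1 -0.04, Tie1 -0.05, Angpt1 0.65 and Vwf -0.05, and the change per week gave Tie1 -0.003. With array weights, late against early gave Cdh5 -0.06, Tie1 -0.13 and Angpt2 -0.19, the late minus early diet difference Pecam1 -0.07, Cdh5 -0.11, Kdr -0.20 and Vwf -0.02, HFC against LFC Tek -0.09, the doses together Angpt2 0.46, HF75 Angpt2 0.30, and the change per week Pecam1 -0.015 and Tie1 -0.032. With scan day as block the change per week of Tie1 was -0.008, the late minus early diet difference of Pecam1 -0.10 and Angpt2 for the doses together 0.17, which became 0.26 with a random block for the slide. Quantile normalization gave Angpt2 -0.06 for late against early, Cdh5 -0.02 for the doses together and Tie1 -0.002 per week, and outlier spots kept gave Angpt1 0.17 for the doses together. Without the 6 arrays low in immediate early genes, late against early gave Cdh5 -0.44, Tie1 -0.62, Angpt2 -0.77 and Vwf -0.42, the late minus early diet difference Pecam1 -0.71, Cdh5 -0.13, Angpt2 -0.01 and Vwf -0.15, the doses together Angpt2 0.10, and the change per week Tie1 -0.015 and Vwf -0.0005. The causes were not tested. With each time point left out, late against early ran from -0.87 to 0.02 for Pecam1, -0.29 to 0.67 for Cdh5, -0.51 to 0.08 for Kdr, -0.38 to 0.37 for Tie1, -0.24 to 0.01 for Angpt1, -0.49 to 0.41 for Angpt2 and -0.12 to 0.83 for Vwf. HFC against LFC ran from -0.48 to 0.09 for Pecam1 and -0.31 to 0.19 for Angpt2, and its late minus early difference from -0.30 to 0.72 for Pecam1 and -0.09 to 0.85 for Kdr. The doses together ran from -0.13 to 0.50 for Cdh5, -0.18 to 0.52 for Tie1, -0.27 to 0.08 for Angpt1, -0.27 to 0.52 for Angpt2 and -0.12 to 0.67 for Vwf, and HF75 from -0.79 to 0.13 for Angpt2. The change per week ran from -0.036 to 0.099 for Pecam1, -0.007 to 0.078 for Tek, -0.052 to 0.046 for Tie1 and -0.010 to 0.072 for Vwf. The number of pairs called stayed between 26 and 36 of 36 in the alternatives run.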
